A study of Rattus norvegicus with 16 samples.

Results

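Of the 14145 circRNAs with a probe on the arrays, 2 are described here, rno_circRNA_002997 from Ttc3 (probe ASCRPR000425) and rno_circRNA_005515 from Zdhhc20 (probe ASCRPR005122). Both were chosen by their IP intensity in MT against NS rats, since the study lists them among its 10 circRNAs with the largest rise of m6A quantity in the MT group, and for their host genes, which encode enzymes that modify other proteins. The difference in m6A quantity between the groups is therefore the reason for the choice and is given as a description without a test. In the deposited values, the circRNA of Zdhhc20 was 2.93-fold and that of Ttc3 2.73-fold higher in the MT group, which placed them at rank 1 and rank 3 among the 54 hypermethylated circRNAs. The circRNA at rank 10, the last inside the list, was 1.89-fold higher and the next one 1.87-fold higher. The arrays name probes and not circRNAs, and each circRNA name with its host gene had been tied to a probe through the fold change and P of that list. Both circRNAs passed the filter on dim probes, since IP was well above background on 5 arrays for Ttc3 and on 4 for Zdhhc20, where at least 4 of 8 were required. These were 4 MT arrays and 1 NS array for Ttc3 and 3 MT arrays and 1 NS array for Zdhhc20. Passing the filter thus depended on the difference that chose them, and nothing is read from it.

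The RNA came from the lumbar spinal cords of 8 adult male Sprague-Dawley rats. The 4 rats of the morphine tolerance (MT) group had received 10 μg of morphine hydrochloride in 10 μl intrathecally in the morning and in the evening over 7 days, and the 4 rats of the normal saline (NS) group the same volume of saline. Cords were collected in the morning of day 8, 1 h after an injection of morphine or saline. The effect of that last dose and tolerance therefore cannot be told apart. An antibody against m6A separated the RNA of each rat into a precipitated fraction (IP), which holds modified RNA, and the supernatant (SUP), and RNase R then removed linear RNA from both. Each rat had 1 array, on which IP always carried Cy5 and SUP always carried Cy3, so that dye and fraction cannot be told apart. The RNA is that of whole tissue, in which fewer cells of a type and less RNA per cell cannot be told apart, and probes for circRNAs do not allow a check of the tissue by marker transcripts.

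CircRNAs arise when the end of an exon is spliced back to an upstream splice site, which leaves a closed ring without free ends that withstands exonucleases and is common in nervous tissue. M6A is a methyl mark on adenosine that is set by the METTL3 and METTL14 complex, removed by FTO and ALKBH5, and read by YTH domain proteins. Ttc3 encodes a RING-type ubiquitin ligase with tetratricopeptide repeats that targets phosphorylated Akt, and Zdhhc20 encodes a palmitoyltransferase of the DHHC family, which attaches a fatty acid to cysteines of membrane proteins such as the EGF receptor. The arrays measured the circular products of these genes and neither the linear mRNAs nor the proteins.

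In RefSeq (assembly GRCr8), Ttc3 lies on chromosome 11, from 47158766 to 47258612 on the plus strand, and Zdhhc20 on chromosome 15, from 36095624 to 36154546 on the minus strand. The scanner files give no positions for the circRNAs, so that the exons they hold are not stated here. As the sequence that identifies each host locus, a 200-base stretch just upstream of the gene is shown 5′ to 3′ on the strand of the gene, from chr11:47158547-47158746 and chr15:36154583-36154782. Capitals mark the GC box GGGCGG on either strand.
Ttc3: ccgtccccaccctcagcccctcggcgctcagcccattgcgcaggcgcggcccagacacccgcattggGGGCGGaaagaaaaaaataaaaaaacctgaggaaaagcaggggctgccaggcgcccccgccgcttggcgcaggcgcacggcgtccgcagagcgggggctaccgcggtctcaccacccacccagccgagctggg
Zdhhc20: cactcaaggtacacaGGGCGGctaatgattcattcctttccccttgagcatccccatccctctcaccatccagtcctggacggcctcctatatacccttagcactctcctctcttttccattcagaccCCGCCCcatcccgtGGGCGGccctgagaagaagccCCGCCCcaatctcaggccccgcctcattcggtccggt
The stretch of Ttc3 holds 1 GC box and 20 CpG dinucleotides, and that of Zdhhc20 holds 4 GC boxes and 9 CpG dinucleotides. Of the 33469 RefSeq stretches of this length, 24.2% hold the box on at least 1 strand, and the median number of CpG dinucleotides is 4. These counts describe the letters only.

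The median processed intensity of all circRNA probes was between 295 and 522 per array in IP and between 314 and 559 in SUP, and between 83.6% and 96.2% of the probes were well above background. MT and NS arrays occupied different rows of the slide by their position codes, so that row and group cannot be told apart. Intensities are given on the log2 scale after subtraction of the mean of the spike-in probes of each array and channel, which leaves the size of 1 unit equal to a doubling.

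The m6A quantity of the circRNA from Ttc3, its normalized IP intensity, was higher in the MT group and close to the background in most rats of the NS group. MT replicates 1 to 4 had 6.75, 6.51, 6.36 and 5.81 log2, and NS replicates 1 to 4 had 4.58, 5.99, 3.84 and 4.54. NS replicate 2 lay above MT replicate 4, so that the groups overlapped, and the remaining NS rats lay below every MT rat. The mean of the MT rats was 6.36 ± 0.40 (SD, n = 4) and that of the NS rats 4.74 ± 0.90 (SD, n = 4), a difference of 1.62 (standard error 0.44). Here and below, the standard error of a group difference is that of limma, with a variance moderated across circRNAs. It is therefore not the one that the SDs of these rats give. The IP spot stood well above background in each MT rat and, among the NS rats, in replicate 2 alone. In processed intensity units with the error that the scanner software assigns, the brightest spot was 153 ± 19.6 in MT replicate 1 and the dimmest 18.0 ± 8.61 in NS replicate 3.

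The m6A quantity of the circRNA from Zdhhc20 was likewise higher in the MT group, with a wider spread among the MT rats. Its values were 7.01, 7.02, 6.01 and 5.47 log2 for MT replicates 1 to 4, while those for NS replicates 1 to 4 were 4.79, 6.04, 4.56 and 3.26. The groups again overlapped through NS replicate 2, which lay above MT replicates 3 and 4. The means differed by 1.72 (standard error 0.61). The spot of NS replicate 4, at 11.1 ± 8.13 intensity units, was the dimmest, and its error was nearly as large as its value. Its IP spot stood well above background in MT replicates 1, 2 and 3 and in NS replicate 2. Among the 12247 circRNAs with SUP well above background in all 8 rats, 5 had the IP detection pattern of Ttc3 (4 MT rats and 1 NS rat) and 29 that of Zdhhc20 (3 MT rats and 1 NS rat). These counts include the 2 circRNAs themselves. The mirrored patterns were held by 5 circRNAs (1 MT rat and 4 NS rats) and by 20 (1 MT rat and 3 NS rats). IP was well above background in more MT than NS rats for 275 circRNAs and in more NS than MT rats for 651. All 77 negative control spots of each array were dimmer than either circRNA in IP and in SUP. Over all 12893 circRNAs tested, 1.67% were raised in IP by at least 1.5-fold with an unadjusted P under 0.05, 0.132% were lowered, and 2.74% of those with a value in each rat had all MT rats above all NS rats. The IP split depended on the scaling, with 215 raised and 17 lowered as reported, 111 and 103 by limma in the deposited values, and 54 and 66 in the deposited values by the criterion behind the study's list. Since IP chose both circRNAs, nothing is read from these shares.

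**Figure D1:**
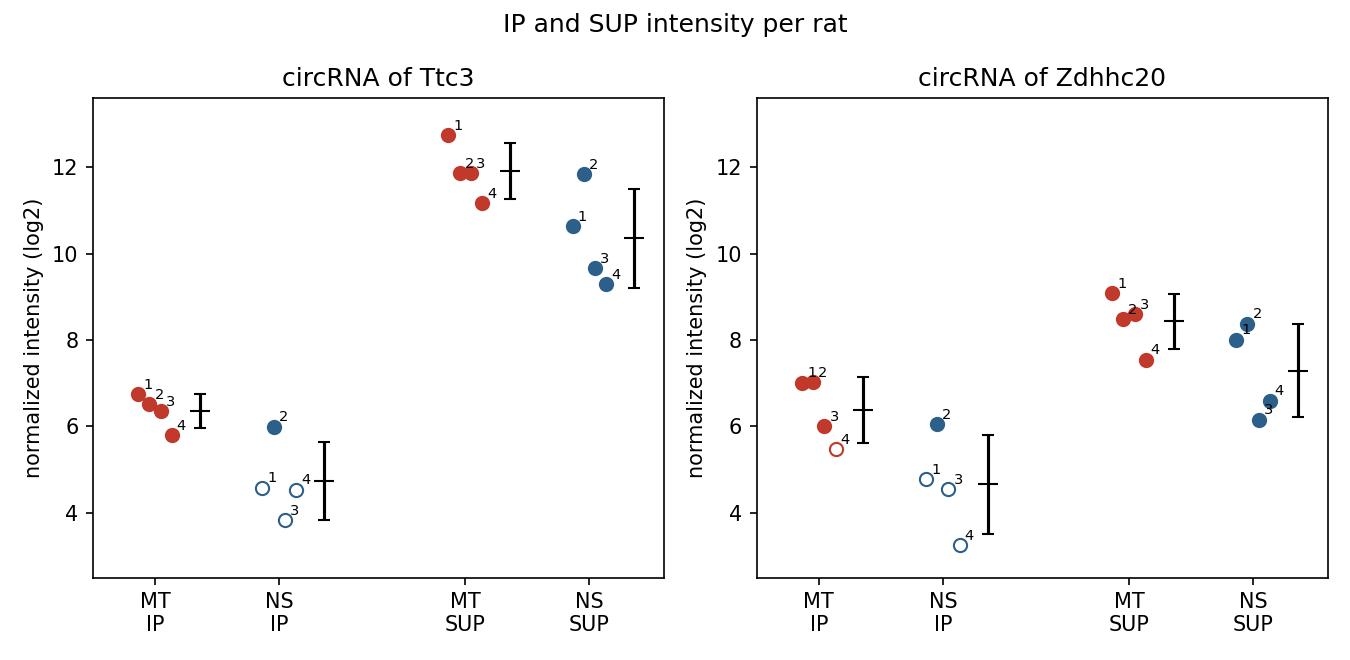
Normalized log2 intensity of the circRNAs from Ttc3 and Zdhhc20 in IP and SUP, with 1 point per rat labeled by its replicate number, filled where the spot was well above background and open where it was not, and with bars for the mean and SD of each group (n = 4). The open points are 3 NS rats in the IP of Ttc3 and 3 NS rats and 1 MT rat in the IP of Zdhhc20, while every SUP point is filled.

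The size of both IP differences depended on how dim spots were treated. When signals below the dimmest spot well above background on an array were raised to that spot, a choice made after the values were seen, the difference was 1.01 for Ttc3 and 1.02 for Zdhhc20. With normexp background correction (offset 50) of the median pixel signal the differences were 0.32 and 0.32. The offset of 50 was above the IP median pixel signal of both circRNAs in every rat, which lay between 19 and 35. Later values under normexp hold this offset too. The floor and the offset thus draw dim IP spots together by construction. The MT mean of IP was the higher with either choice and without them.

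The supernatant was not used to choose the circRNAs, although it comes from the same rats and arrays as IP and ran with it. Over the 8 rats, Pearson's r between IP and SUP was 0.932 for Ttc3 and 0.847 for Zdhhc20, given as a description, so that the choice by IP bears on SUP and the P values of SUP are not independent of it. For the circRNA from Ttc3, SUP was well above background on all 8 arrays. For MT replicates 1 to 4 it was 12.75, 11.86, 11.87 and 11.17 log2, and for NS replicates 1 to 4 it was 10.63, 11.84, 9.66 and 9.29. The groups overlapped only through NS replicate 2, as in IP. The difference of 1.56 (standard error 0.57), or 2.95-fold, had an unadjusted P of 0.0253 and an adjusted P of 0.188 by limma over 13347 circRNAs. It thus met the criterion of 1.5-fold and an unadjusted P under 0.05, which 16.1% of all circRNAs met in the same direction and 0.112% in the opposite one. It did not meet this criterion when the variance was not moderated across circRNAs, or when limma was fitted without MT replicate 1 (unadjusted P = 0.0689), NS replicate 3 (unadjusted P = 0.0644) or NS replicate 4 (unadjusted P = 0.0637). The difference was not past the adjusted threshold, and neither was that of any other circRNA, although 3086, or 23.1%, had an unadjusted P under 0.05. In the deposited values the difference was 1.41, and 13.5% of circRNAs were raised at the criterion. The split of all circRNAs depended on the scaling, with 2153 raised and 15 lowered as reported, 1121 and 365 with a common 75th percentile, 1039 and 591 with quantile normalization, and 945 and 633 with loess and Aquantile normalization. The number raised was 1044 without NS replicate 3 and 3812 without NS replicate 1.

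For the circRNA from Zdhhc20, SUP was likewise well above background on all 8 arrays, at intensities between 71.5 and 403. MT rats had 9.09, 8.48, 8.60 and 7.54 log2 in the order of their replicate numbers, and NS rats had 8.01, 8.38, 6.16 and 6.60. MT replicate 4 lay below NS replicates 1 and 2. The difference of 1.14 (standard error 0.55) had an unadjusted P of 0.0692 and an adjusted P of 0.235 by limma, so that it passed neither threshold. By limma it met the unadjusted criterion in the deposited values (unadjusted P = 0.0485), with a replicate block (unadjusted P = 0.0234), and without MT replicate 4 (unadjusted P = 0.0375), NS replicate 1 (unadjusted P = 0.0462) or NS replicate 2 (unadjusted P = 0.0218). It was 0.36 with normexp background correction, 0.70 with loess and Aquantile normalization and 0.72 with quantile normalization. The median SUP difference over all circRNAs was 0.28, and it was 0.11 in the deposited values and −0.02 with a common 75th percentile, where the difference was 1.26 for Ttc3 and 0.84 for Zdhhc20. The SUP differences of both circRNAs thus lay above the median in these 3 scalings, while the sign of the median depended on the scaling. A common 75th percentile takes out most of a shift of whole arrays by construction, so that its median cannot show such a shift. Of all circRNAs, 1.34% had a larger SUP difference than that of Ttc3 and 6.44% a larger one than that of Zdhhc20. Complete separation in SUP, with all MT rats above all NS rats, occurred in 11.0% of circRNAs and in neither of the 2.

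**Figure D2:**
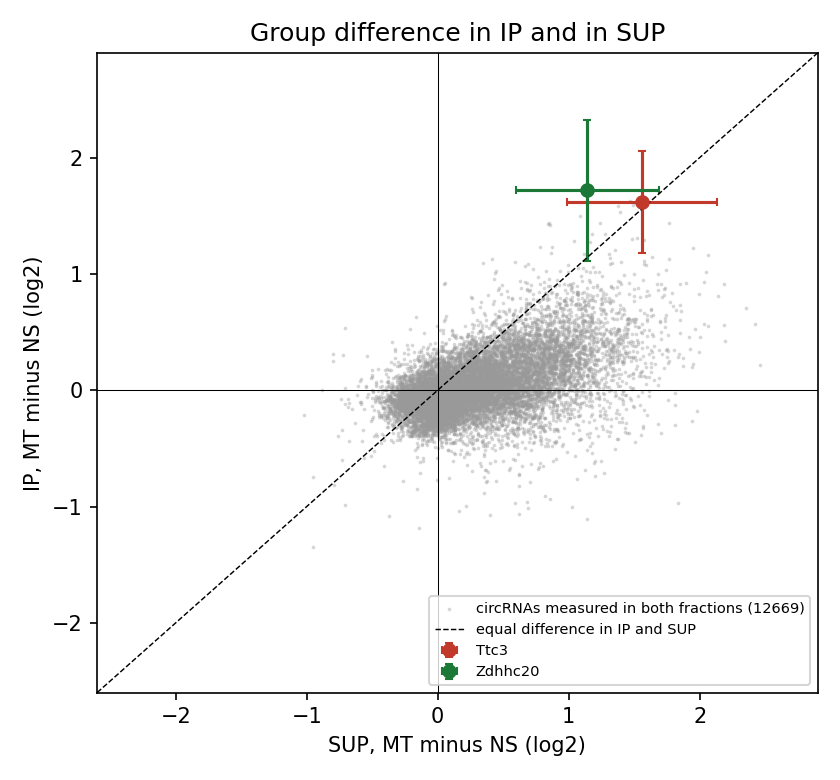
Difference between the MT and the NS group in IP against that in SUP, both in log2, for the 12669 circRNAs measured in both fractions (grey) and the 2 circRNAs described, with bars for the moderated standard error of limma. The circRNA from Ttc3 lies close to the line of equal differences at 1.56 in SUP and 1.62 in IP, and that from Zdhhc20 above it at 1.14 and 1.72.

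The m6A level is the percentage that IP makes up of IP and SUP together. Its position among other circRNAs is open to dye effects of single probes, since no dyes were swapped. For the circRNA from Ttc3 nearly all of the combined signal was SUP signal. The level of MT replicates 1 to 4 was 1.54%, 2.40%, 2.15% and 2.37%, and that of NS replicates 1 to 4 was 1.49%, 1.71%, 1.74% and 3.59%. NS replicate 4 stood above all other rats and the remaining values of both groups overlapped. Its mean was 2.11% ± 0.40 (SD, n = 4) over the MT rats and 2.13% ± 0.98 (SD, n = 4) over the NS rats, where the median circRNA had 39.6% and 43.9%. IP was not well above background in NS replicates 1, 3 and 4, so that their levels are estimates from dim spots, and no rank among circRNAs is given. The level itself depended on the processing. It was 3.51% over the MT rats and 2.94% over the NS rats with a common 75th percentile, 2.11% and 3.28% with dim signals raised to a floor, and 9.33% and 16.2% with normexp background correction.

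Within each array, log2(IP/SUP) of the circRNA from Ttc3 relative to the median of all circRNAs was −5.09 ± 0.38 (SD, n = 8) on average and below 0 in 8 of 8 rats. This value holds the IP that chose the circRNA and was not tested. It was −4.79 with dim signals raised to a floor and −2.39 with normexp background correction, each time below 0 in 8 of 8 rats.

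For the circRNA from Zdhhc20, the level varied from rat to rat by more than the means of the groups differed. The MT rats had 19.1%, 26.6%, 14.2% and 19.2% in the order of their numbers, and the NS rats 9.67%, 16.5%, 24.8% and 8.99%. The highest NS rat lay above 3 of the 4 MT rats. The mean was 19.8% ± 5.12 (SD, n = 4) against 15.0% ± 7.36 (SD, n = 4). IP was not well above background in MT replicate 4 and in NS replicates 1, 3 and 4. The level was 29.4% over the MT rats and 19.8% over the NS rats with a common 75th percentile, 19.8% and 21.7% with the floor, and 33.5% and 34.1% with normexp background correction. Its log2(IP/SUP) relative to the array median was −1.84 ± 0.75 (SD, n = 8) and below 0 in 8 of 8 rats, again without a test, −1.49 with the floor and −0.47 with normexp background correction.

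**Figure D3:**
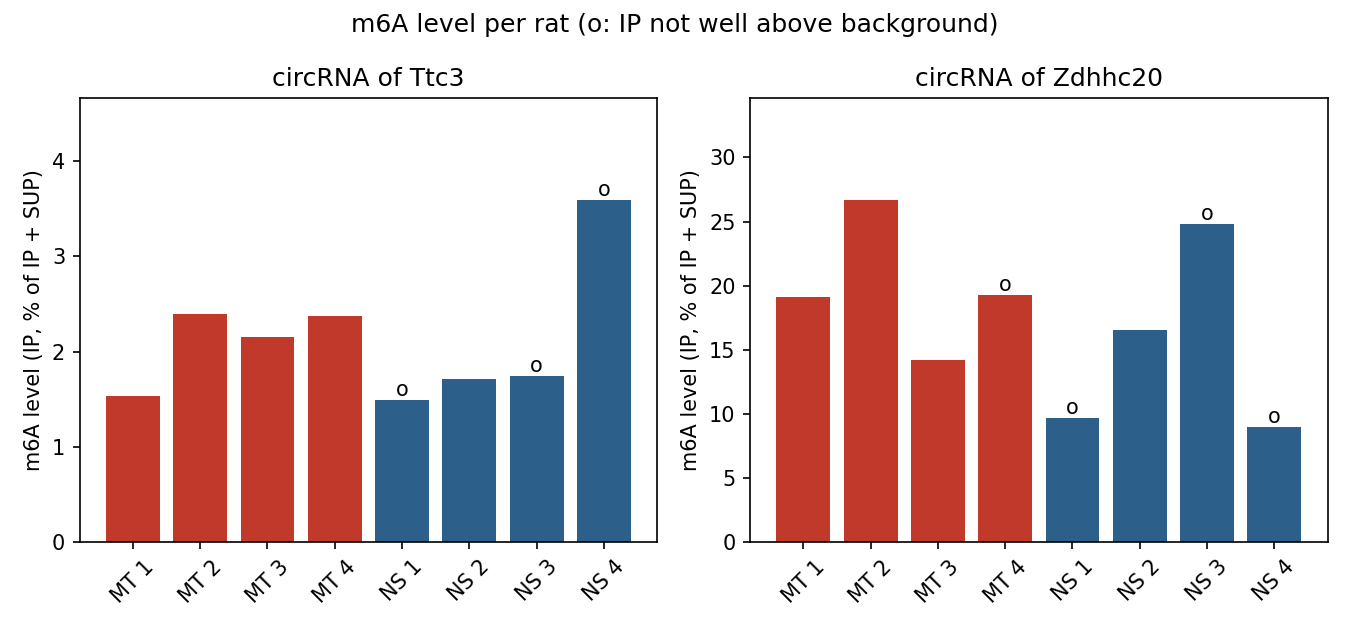
m6A level in percent, IP over IP + SUP, of the circRNAs from Ttc3 and Zdhhc20, with 1 bar per rat, red for MT and blue for NS, and a circle above rats whose IP was not well above background. For Ttc3 the bars lie between 1.49% and 3.59% and for Zdhhc20 between 8.99% and 26.6%, and the groups overlap in both.

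The group difference of the circRNA from Ttc3 was thus nearly as large in SUP as in IP. Its log2(IP/SUP) differed by 0.06 (standard error 0.30) between the groups. For Zdhhc20 the difference was 0.57 (standard error 0.41), while the median over all circRNAs was −0.23. These differences hold IP and were not tested. Their sign depended on how dim IP spots were treated. With dim signals raised to a floor they were −0.55 for Ttc3 and −0.13 for Zdhhc20, and with normexp background correction −0.85 and −0.04. Both choices draw dim IP spots together by construction, which lowers the IP difference. How much of the shift below 0 came from this was not tested, and for neither circRNA is a direction of the m6A level given. When arrays were scaled to a common 75th percentile within each channel, the differences in log2(IP/SUP) were 0.32 and 0.83. The median over all circRNAs was then 0.02.

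**Figure D4:**
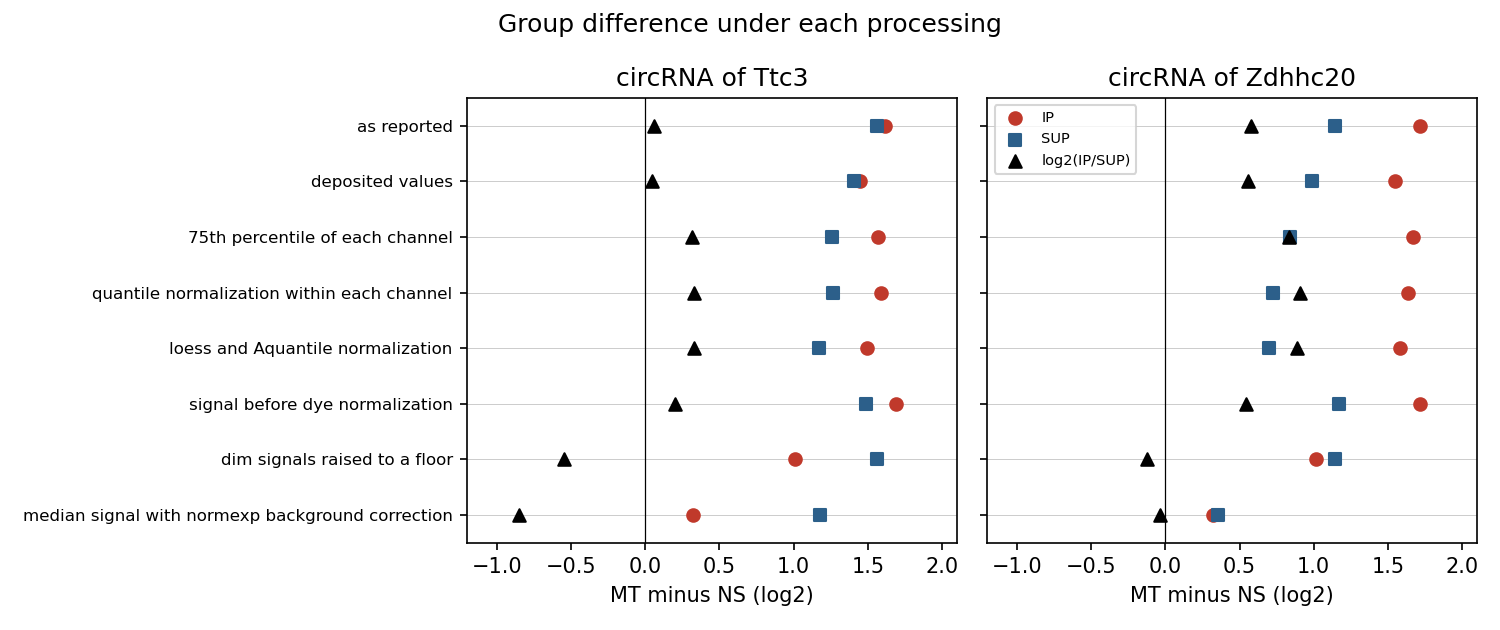
Difference between the MT and the NS group in IP, SUP and log2(IP/SUP), in log2, under the reported processing and 7 alternatives. IP and SUP lie above 0 in every row, while log2(IP/SUP) lies below 0 in the bottom pair of rows, where dim spots were raised to a floor or background-corrected with normexp.

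The summed level, log2 of IP and SUP together, followed the brighter supernatant. For Ttc3 it was 11.94 ± 0.64 (SD, n = 4) over the MT rats and 10.38 ± 1.13 (SD, n = 4) over the NS rats, with a difference of 1.56 (standard error 0.57). For Zdhhc20 it was 8.75 ± 0.65 (SD, n = 4) and 7.52 ± 1.03 (SD, n = 4), with a difference of 1.23 (standard error 0.54), which was 0.35 with normexp background correction. The median over all circRNAs was 0.16, and it was −0.01 in the deposited values and −0.02 with a common 75th percentile. The MT and NS ranges overlapped in both sums, where 8.89% of circRNAs had all MT rats above all NS rats.

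The order of the rats was much alike in both circRNAs and both fractions. Both were chosen by the same difference in IP, and the order was partly that of whole arrays. The median SUP of all circRNAs was 9.56, 9.18, 9.22 and 9.02 log2 in MT replicates 1 to 4. In NS replicates 1 to 4 it was 9.15, 9.09, 8.57 and 8.59. The median IP was also highest in MT replicates 1, 2 and 3, at 8.52, 8.54 and 8.45. MT replicates 1, 2 and 3 and NS replicate 2 held the top 4 places in IP and SUP of each circRNA, and MT replicate 4 and NS replicates 1, 3 and 4 the lower 4. NS replicate 2 lay above MT replicate 4 in each of these, and NS replicate 1 did so in the SUP of Zdhhc20. When each rat was left out in turn, the IP difference was highest without NS replicate 2, at 2.04 for Ttc3 and 2.18 for Zdhhc20, and lowest at 1.32 for Ttc3 without NS replicate 3 and at 1.25 for Zdhhc20 without NS replicate 4. The SUP difference of Ttc3 was between 1.20 without NS replicate 4 (adjusted P = 0.416 by limma) and 2.05 without NS replicate 2 (adjusted P = 0.117 by limma). That of Zdhhc20 was between 0.77 without NS replicate 3 (adjusted P = 0.502 by limma) and 1.51 without NS replicate 2 (adjusted P = 0.140 by limma).

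Among the 11386 other circRNAs with IP well above background on every array, those whose IP was most alike to that of Ttc3 over the 8 rats were probes ASCRPR005249 (Pearson r = 0.965), ASCRPR009027 (0.951) and ASCRPR000570 (0.949). For Zdhhc20 they were ASCRPR000570 (0.977), ASCRPR001989 (0.958) and ASCRPR004357 (0.955), so that probe ASCRPR000570 was among the closest to both. The median correlation with all of these circRNAs was 0.206 for Ttc3 and 0.238 for Zdhhc20. In log2(IP/SUP), over 11023 circRNAs, the closest to Ttc3 were ASCRPR004398 (0.980), ASCRPR012536 (0.944) and ASCRPR003529 (0.940), and the closest to Zdhhc20 were ASCRPR013731 (0.807), ASCRPR001521 (0.796) and ASCRPR012025 (0.774), with no probe in common. These values describe 8 rats that share arrays and were not tested, and the files do not pair these probes with host genes.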

How the data were processed

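M6A-circRNAs were measured in IP (Cy5) and SUP (Cy3) of 8 rats on two-color arrays. The authors deposited scanner output with spot intensities, made by Agilent Feature Extraction 11.0.1.1 with background subtraction and dye normalization and flags for each spot, and a table of log2 values normalized with an average of spike-in intensities for 12893 circRNAs. Here the log2 processed intensity was used after subtracting, per array and channel, the average over 102 probes that carry spike-in names, with 1 constant added. These may not be the spike-ins that the authors averaged, so the deposited log2 values are an alternative. Each circRNA has 1 spot per array. Spots marked as outliers were left out.

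CircRNAs well above background on at least 4 of 8 arrays were fitted with limma 3.58.1 in R 4.3.3, with Benjamini-Hochberg adjustment over all of them. The number of rats limits the precision. IP and SUP were both fitted across all circRNAs, and for the 2 circRNAs a P is given for SUP alone, since values that hold IP chose them or share its signal. A planned permutation over the signs of log2(IP/SUP) is not reported for this reason. Figures used Python 3.11.15 and matplotlib 3.10.9.

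The circRNAs named are the 2 chosen and, for each, the 3 with the highest correlation in IP and in log2(IP/SUP). Members, lists and tests were chosen with earlier results of these data known. Lists of other palmitoylation and ubiquitin ligase genes, and other circRNAs of both host genes, were not analysed here, because the files do not name host genes. Normalization, background correction, outlier spots, the filter, the test, a replicate block and leaving out each rat were varied. A floor for dim spots and the signal before dye normalization were added after seeing the data.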

Additional observations from a re-analysis of the deposited data

Results flagged for a closer look

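The m6A level of the circRNA from Ttc3 in the NS group was marked because 1 rat stood apart. NS replicate 4 had 3.59%, where the remaining NS rats had between 1.49% and 1.74%, and the gap took up 0.879 of the range of the group. Chance marks about 1 of 20 groups in this way, and the mark is no test here, since the level holds the IP that chose the circRNA and IP was not well above background in NS replicates 1, 3 and 4. In NS replicate 4, IP was at 27.1 ± 8.63 intensity units, and SUP was the dimmest of the 8, at 584 ± 59.0. Without NS replicate 4 the difference between the mean levels was 0.466 percentage points with the higher mean in the MT group, where it was −0.0191 with all rats. The part of the dim IP spot in this value was not tested.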

How the results depend on the processing

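The group differences of both circRNAs in IP, SUP and the summed level were above 0 in every alternative run for them. There were 9 alternatives with all rats for IP and the summed level and 12 for SUP, since the filter and the test were varied for SUP alone. No adjusted P in SUP, by limma or Student's test, fell under 0.05. The smallest was 0.0746 for Ttc3 and 0.0976 for Zdhhc20, and the largest, over all alternatives and rats left out, was 0.502, all by limma. With the median signal and normexp, the IP difference was 0.324 for Ttc3 and 0.318 for Zdhhc20, log2(IP/SUP) −0.850 and the level −6.90 percentage points for Ttc3, and the summed level 0.347 for Zdhhc20. With dim signals raised to a floor, log2(IP/SUP) was −0.550 and −0.126 and the level −1.16 and −1.89 percentage points for Ttc3 and Zdhhc20. Both choices draw dim IP spots together by construction, and how much of these shifts came from that was not tested. The position of log2(IP/SUP) below the array median held in each of the 8 alternatives run for it. It went from −5.41 to −2.39 for Ttc3 and from −2.30 to −0.467 for Zdhhc20, with the values nearest 0 under normexp. Leaving out each rat gave SUP differences between 1.20 and 2.05 for Ttc3 and between 0.768 and 1.51 for Zdhhc20, IP differences between 1.32 and 2.04 and between 1.25 and 2.18, and levels between −0.234 and 0.466 and between 2.54 and 8.08 percentage points.

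Over all circRNAs, 2153 were raised and 15 lowered in SUP at the criterion. These counts were 1121 and 365 with the 75th percentile, 1039 and 591 with quantile normalization, 945 and 633 with loess and Aquantile normalization, 760 and 1 with normexp, and 1711 and 64 in the deposited values. There were 9 lowered with the signal before dye normalization, 23 lowered without a filter, and 1368 raised with Student's test, which does not moderate the variance and by which neither Ttc3 nor Zdhhc20 met the criterion. Of the 12 alternatives with all rats, 11 kept Ttc3 past it and 2 placed Zdhhc20 past it, and of the 8 fits without 1 rat, 5 and 3 did. Without 1 rat there were between 1044 raised, without NS replicate 3, and 3812, without NS replicate 1, and between 8, without NS replicate 3, and 45, without MT replicate 1, lowered.

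With a replicate block, 3419 were raised, and the adjusted P in SUP was 0.0746 for Ttc3 and 0.0976 for Zdhhc20. Samples of the same number deviated together in replicates 1 and 4 (correlations across circRNAs of 0.462 to 0.616) but not in 2 and 3 (−0.219 to −0.0145), and correlated best with their own number in 1 and 4 only, so that the numbers are not taken to pair the rats. The alternatives for other probes of the host genes and for the gene lists were not run, since host genes are not named.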
